A study of Mus musculus with 44 samples.

Results

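The 10 genes described here are the keratins Krt7, Krt8, Krt18, Krt19 and Krt23, the adhesion gene Epcam, the RNA-binding protein gene Bicc1, and the transcription factor genes Glis3, Sox4 and Sox9. They were taken by symbol from a table of 20105 rows of read counts, and all 10 were found. RNA was sequenced from liver nuclei of 22 male HEP-INTACT mice, whose hepatocyte nuclei can be immunoprecipitated by a tag. From every mouse both the precipitated hepatocyte nuclei and the nuclei of the whole liver were sequenced. Disease was induced with 20 weeks of the FPC diet or 7 weeks of CDAHFD (a high-fat diet without choline and with defined amino acids), and controls ate a low-fat diet for as long. Animals on a disease diet were assigned to mild or advanced disease by liver histology, so stage was not randomised. Under each diet there were 4 control, 4 mild and 3 advanced mice, and all of them, controls included, carried the tag. The labels give neither the promoter that drives the tag nor the age of the mice. P-values measure the spread between these mice. Single mice are named by stage and animal number, as in Control_9862.

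Bile ducts are lined by cholangiocytes, whose filament network holds KRT7 and KRT19 beside KRT8 and KRT18, while hepatocytes hold KRT8 and KRT18 and normally lack the other keratins. In chronic liver injury biliary cells multiply in the ductular reaction, and hepatocytes can take on biliary genes such as Sox9, Epcam and Krt19. BICC1 and GLIS3 have both been linked to cystic kidney disease, and SOX4 and SOX9 are HMG-box factors that act together in the formation of the bile ducts.

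Positions below are of the mouse build mm10, as the authors' deposited table gives them. Krt7 (chr15:101412403-101427806), Krt8 (chr15:101996711-102004342) and Krt18 (chr15:102028216-102032026) lie in 1 keratin cluster, and Krt8 and Krt18 are separated by 23.9 kb. Krt19 (chr11:100140811-100145919), Krt23 (chr11:99477973-99493110) and Sox9 (chr11:112782210-112787757) are on another chromosome. Epcam (chr17:87635979-87651127) and Sox4 (chr13:28950730-28953682) are short genes as well. Bicc1 (chr10:70925096-71159634) spans 234.5 kb and Glis3 (chr19:28258851-28680077) 421.2 kb. For all 10 the counted length equalled the whole gene, so intronic reads of unspliced nuclear RNA were counted with exonic ones. Other annotated genes overlap Bicc1 (4930533K18Rik and Gm32025), Glis3 (Gm35866 and D930032P07Rik) and Sox4 (Gm46405). Whether counting used the strand is not stated, so reads of these overlapping genes cannot be told apart from those of Bicc1, Glis3 and Sox4.

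The promoters of 7 of the 10 genes were found in the RefSeq promoter table (GRCm38.p6). The 250 bases before the start of 4 of them are shown, because Krt8 and Krt18 encode partners yet changed by different amounts, and Krt7 and Epcam were close to silent in control hepatocyte nuclei and not in diseased ones. Each runs 5′ to 3′ on the gene's own strand, and capitals mark matches, on either strand, to the motifs named after the sequences. The windows are chr15:102004343-102004592 (minus strand) for Krt8, chr15:102027966-102028215 (plus) for Krt18, chr15:101412153-101412402 (plus) for Krt7 and chr17:87635729-87635978 (plus) for Epcam.
Krt8: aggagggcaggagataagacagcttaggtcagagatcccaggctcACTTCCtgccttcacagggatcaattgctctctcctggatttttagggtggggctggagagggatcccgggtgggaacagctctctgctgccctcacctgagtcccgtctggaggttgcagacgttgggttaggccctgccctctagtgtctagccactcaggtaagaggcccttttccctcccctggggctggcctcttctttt
Krt18: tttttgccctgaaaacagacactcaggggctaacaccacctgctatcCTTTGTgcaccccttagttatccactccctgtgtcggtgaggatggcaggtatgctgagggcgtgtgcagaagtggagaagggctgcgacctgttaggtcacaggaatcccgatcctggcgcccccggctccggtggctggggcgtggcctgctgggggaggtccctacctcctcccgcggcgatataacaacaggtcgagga
Krt7: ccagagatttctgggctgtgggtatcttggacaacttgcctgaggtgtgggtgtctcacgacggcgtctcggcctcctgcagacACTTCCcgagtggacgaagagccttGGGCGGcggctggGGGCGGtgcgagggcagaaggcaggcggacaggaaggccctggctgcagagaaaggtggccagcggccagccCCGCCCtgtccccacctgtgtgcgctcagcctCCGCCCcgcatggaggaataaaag
Epcam: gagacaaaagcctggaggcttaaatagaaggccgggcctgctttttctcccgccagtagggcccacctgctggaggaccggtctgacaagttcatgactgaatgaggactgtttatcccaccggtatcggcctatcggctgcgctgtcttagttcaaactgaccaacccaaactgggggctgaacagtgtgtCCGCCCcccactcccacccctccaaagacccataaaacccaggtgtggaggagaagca
In all, 7 motifs were searched on both strands, and the share of 32851 promoters of 250 bases that hold each is given. The SP1/KLF core GGGCGG (32.7% of promoters) was found 4 times before Krt7, 3 times before Glis3 and once before Epcam. The ETS core GGAAGT (19.7%) was found before Krt7 and Krt8. The SOX pair core ACAAAG (16.5%) was found before Krt18, the SOX core ACAAT (27.7%) before Krt23 and the TEAD motif GGAATG (12.6%) before Sox4. The TATA box TATAAA (12.4%) and the AP-1 motif TGANTCA (6.75%) were in none of the 7 windows. ACAAT and ACAAAG share their first 4 letters, and no match of one overlapped a match of the other. No motif was shared by all 7. GC content was 75.6% before Glis3 and 66.0% before Krt7, against a median of 52.4% over all promoters. A match is a string of letters and no measured binding site.

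Depth was 12.1 to 33.1 M counts per library (median 22.8 M). Levels are given as CPM, a gene's reads per 1 M counts of its library, scaled by TMM factors over all 44 libraries. With plain CPM the median gene would stand 0.22 to 0.44 log2 units higher in the diseased groups than in their controls relative to this scale. All 10 hepatocyte markers had reads in every group, and their sum was 1.14 to 1.65 times as high in hepatocyte as in whole liver nuclei (group means). The sum of 10 endothelial markers in hepatocyte nuclei stood at 0.104 to 0.194 of its whole liver value. Both libraries of a mouse deviated together from their group means in 20 of 22 mice. The exceptions were CDAHFD mice Control_9862 and Control_9867, whose hepatocyte libraries each resembled the whole liver library of the other mouse. Results that set the fractions of CDAHFD controls against each other are therefore also given without them.

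Hepatocyte nuclei of advanced mice held more RNA of nearly all of these genes. In FPC mice 9 of 10 rose against controls and in CDAHFD mice all 10, by edgeR's quasi-likelihood test with p-values adjusted after Benjamini and Hochberg across every gene tested. The threshold was an adjusted p of 0.05. Among all genes tested 26.5% (FPC) and 30.3% (CDAHFD) were called higher. The median log2 fold change of the 10 was 4.70 under FPC and 3.86 under CDAHFD, and the median over all genes tested was 0.00 in both. In mild mice 8 rose under FPC (21.8% of genes called higher) and 10 under CDAHFD (29.6%). In whole liver nuclei of advanced mice 9 rose under FPC (31.3%) and 9 under CDAHFD (29.7%), and of mild mice 8 (25% of genes) and 6 (27.7%). No member fell in any of these comparisons. Krt7, Krt19, Epcam and Sox4 passed the low-count filter in hepatocyte nuclei through the diseased libraries, so they could scarcely be called lower there. In hepatocyte nuclei every advanced mouse lay above every control for 9 members under FPC (24.3% of genes tested) and 9 under CDAHFD (27.9%), and every mild mouse for 7 (19.7%) and 9 (27.6%). In such bulk samples a larger number of cells of a type and more RNA per cell cannot be told apart.

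**Figure D1:**
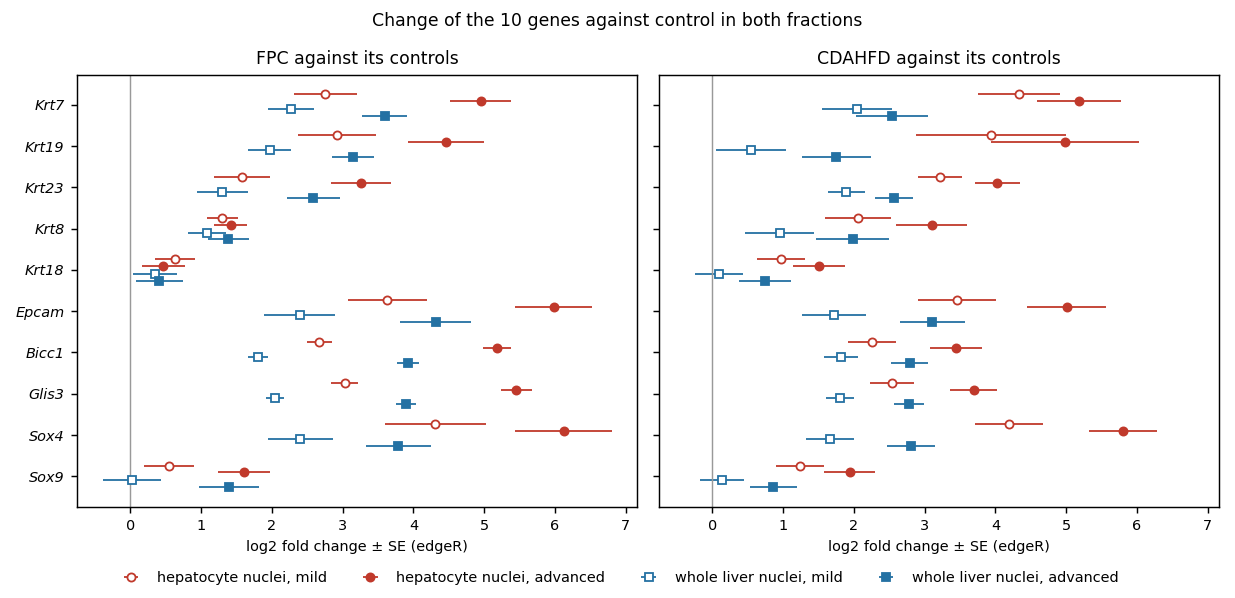
Log2 fold change (horizontal axis, ± SE from edgeR) of each gene against the controls of its diet, for mild (open) and advanced (filled) mice in hepatocyte nuclei (red circles) and whole liver nuclei (blue squares). In advanced mice Krt7, Krt19, Krt23, Epcam, Bicc1, Glis3 and Sox4 changed by more than 3 log2 units in hepatocyte nuclei of both diets, while Krt18 stood at 0.47 under FPC and 1.5 under CDAHFD.

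RNA of some other cell types moved with these results. Beside the marker counts below stand 26.5% (FPC) and 30.3% (CDAHFD) of all genes called higher in hepatocyte nuclei of advanced mice. Of 10 hepatocyte markers 7 fell in hepatocyte nuclei of advanced FPC mice (median -0.81) and 4 under CDAHFD (median -0.38), where 20.4% and 29.2% of all genes were called lower. In hepatocyte nuclei the summed endothelial markers ranged from 83.0 to 125 CPM in FPC controls and from 78.5 to 115 CPM in advanced FPC mice, with 2 of 10 rising and 1 falling, and under CDAHFD 1 rose and 1 fell (79.4 to 122 CPM in controls, 79.0 to 90.1 CPM in advanced mice). Of 10 Kupffer cell and macrophage markers 6 rose, from 18.1 to 24.0 CPM summed in controls to 53.9 to 79.1 CPM in advanced FPC mice, and 8 rose under CDAHFD, from 12.7 to 24.7 to 85.4 to 108 CPM. Of 10 stellate cell and fibroblast markers 6 rose under FPC (67.1 to 127 CPM in controls, 125 to 167 CPM in advanced mice) and 5 of 9 tested under CDAHFD (97.6 to 223 and 154 to 193 CPM). Of 8 lymphocyte markers 5 were tested and 4 rose under each diet (10.8 to 60.4 CPM summed in controls against 90.2 to 253 CPM in advanced FPC mice). The mesothelial sum went from 7.67 to 11 CPM in FPC controls to 207 to 236 CPM in advanced mice, nearly all of it Gpm6a (216 CPM), while Upk3b was at 0 in the controls and at 0.115 CPM in advanced mice. Trem2 of the macrophage list was also at 0 in FPC controls. Cholangiocyte genes other than the 10 rose as well, as described with the related lists. A correction was computed that subtracts from each hepatocyte library the whole liver profile of the same mouse times its endothelial ratio. After it the counts of members called in hepatocyte nuclei against control were the same, 9 and 8 under FPC and 10 and 10 under CDAHFD. That correction uses endothelial RNA alone and takes away a small part of the whole liver profile. It could not undo changes of several log2 units, so the unchanged counts are no test of RNA from other cells. The part of cholangiocyte nuclei in the hepatocyte fraction was not tested.

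Krt8 and Krt18 encode the filament pair of simple epithelia, which hepatocytes make in health, and were the members with the most RNA per kb of gene in every group. Krt8 stood at 17.1, 17.2, 23.8 and 34.2 CPM in hepatocyte nuclei of FPC controls, at 46.2, 49.2, 57.6 and 60.9 CPM in mild mice and at 46.7, 48.8 and 74.2 CPM in advanced mice. Controls lay below every diseased mouse, and mild and advanced mice overlapped. The change against control was 1.30 ± 0.22 log2 units (SE, adjusted p = 0.00068) in mild and 1.42 ± 0.24 (0.00029) in advanced mice. Under CDAHFD Krt8 stood at 10.4, 17.3, 18.1 and 29.5 CPM in controls, at 50.8, 79.9, 84.3 and 96.9 CPM in mild mice and at 80.8, 84.4 and 315 CPM in advanced mice. The advanced value of 3.10 ± 0.51 (0.00037) rests in part on mouse Advanced_9896, and without it the change was 2.15 ± 0.33 (0.00046). The mild value was 2.06 ± 0.47 (0.0036). In whole liver nuclei the 3 advanced FPC mice had 37.7, 56.9 and 57.8 CPM, above all 4 controls at 12 to 27.7 CPM (1.39 ± 0.28, 0.0012). Under CDAHFD the whole liver values were 25.2, 40.8 and 124 CPM against 8.73 to 23.4 CPM in controls (1.98 ± 0.52, 0.0078, and 1.04 ± 0.37, 0.040 without mouse Advanced_9896).

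Krt18 moved less than its partner. Hepatocyte nuclei of FPC controls held 33.8, 41.3, 49.1 and 94.1 CPM, those of mild mice 60.3 to 95.2 CPM and those of advanced mice 52.4, 65.5 and 89.3 CPM. Mouse Control_6953 lay among the diseased mice, and neither the mild difference (0.63 ± 0.28, adjusted p = 0.11) nor the advanced one (0.47 ± 0.30, 0.23) passed the test. Without mouse Control_6953 both passed, at 1.03 (0.0032) and 0.86 (0.0072), and so did the whole liver differences of mild (0.72, 0.039) and advanced mice (0.78, 0.025). That mouse had the most Krt8 and Krt18 of the FPC controls in both fractions. Under CDAHFD Krt18 in hepatocyte nuclei went from 34.3, 48.8, 65.7 and 71.6 CPM in controls to 70.6, 111, 123 and 124 CPM in mild mice (0.97 ± 0.34, 0.030) and 99.2, 99.9 and 265 CPM in advanced mice (1.5 ± 0.37, 0.0042). The mild call was lost, at adjusted p of 0.059 to 0.078, without mouse Control_9862 or Control_9867 or without mouse Mild_9852, Mild_9853 or Mild_9894. The advanced value was 0.87 ± 0.28 (0.025) without mouse Advanced_9896. In whole liver nuclei Krt18 was not called under CDAHFD, at 0.09 ± 0.34 (0.85) in mild and 0.75 ± 0.36 (0.10) in advanced mice. The latter stood at 0.13 (0.74) without mouse Advanced_9896 and at 1.08 (0.016) without mouse Advanced_10104.

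Because Krt18 moved less, the balance of the pair shifted. Per kb of gene, hepatocyte nuclei of FPC controls held 0.221 ± 0.032 times as much Krt8 as Krt18 (SD, n = 4), mild mice 0.339 ± 0.031 and advanced mice 0.410 ± 0.037 (n = 3). Under CDAHFD the ratio was 0.170 ± 0.042 in controls, 0.362 ± 0.020 in mild and 0.474 ± 0.104 in advanced mice. The highest hepatocyte control was at 0.252 and the lowest diseased mouse at 0.314, so controls and diseased mice did not overlap. Whole liver nuclei gave close values, 0.237, 0.383 and 0.445 under FPC and 0.212, 0.389 and 0.469 under CDAHFD. Among the 5 keratins Krt18 made up 80.5% ± 2.9 of the RNA per kb in hepatocyte nuclei of FPC controls and 63.5% ± 1.8 in advanced mice. The share of Krt8 was 17.7% ± 2.0 and 26.0% ± 1.9. Under CDAHFD Krt18 made up 85.0% and 64.8%. These ratios are a description and were not tested.

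**Figure D2:**
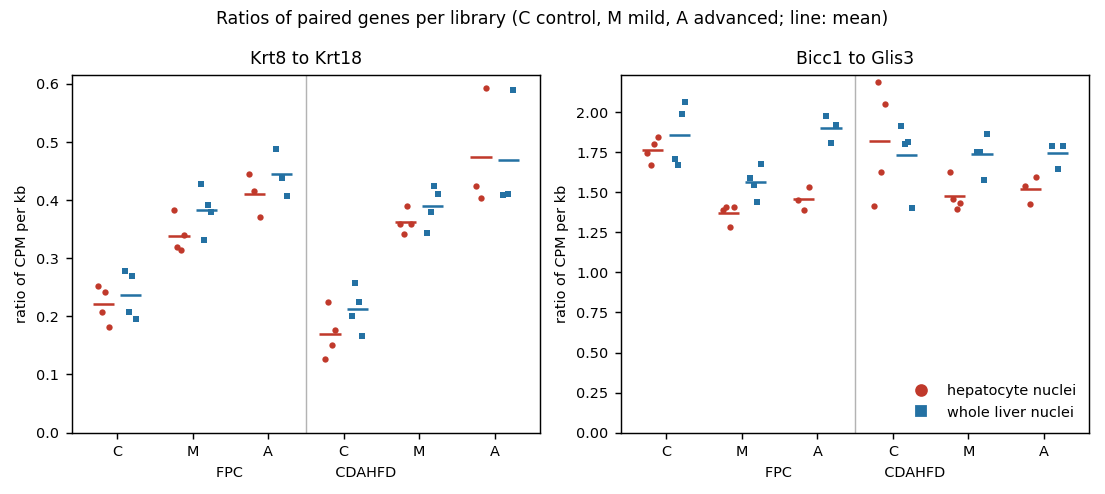
Ratio of CPM per kb of gene in each library (vertical axis, linear from 0) for Krt8 to Krt18 and Bicc1 to Glis3, in hepatocyte (red circles) and whole liver nuclei (blue squares), with the group mean as a line. The Krt8 to Krt18 ratio went from 0.221 to 0.410 in FPC and from 0.170 to 0.474 in CDAHFD hepatocyte nuclei. Bicc1 to Glis3 lay between 1.29 and 2.19 in all 44 libraries. Its hepatocyte mean went from 1.77 in controls to 1.46 in advanced mice under FPC, and from 1.82 to 1.52 under CDAHFD.

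Krt7 and Krt19, a type II and a type I keratin of the bile duct, were near silent in control hepatocyte nuclei. Krt7 had 2 to 8 reads in each FPC control library (0.122, 0.194, 0.258 and 0.479 CPM) and 2 or 3 reads in each CDAHFD control library (0.0977 to 0.135 CPM). Mild FPC mice held 1.47 to 2.02 CPM and advanced mice 4.30, 6.37 and 12.1 CPM, so the 3 groups did not overlap. The changes were 2.76 ± 0.44 (adjusted p = 0.00042) and 4.95 ± 0.44 (1.3e-06). Under CDAHFD mild mice held 0.838, 1.5, 3.66 and 3.75 CPM (4.33 ± 0.58, 8.3e-05) and advanced mice 3.5, 3.56 and 5.89 CPM (5.18 ± 0.59, 1.8e-05). Every diseased mouse was above every control. Whole liver Krt7 changed by 3.59 ± 0.32 (1.3e-06) in advanced FPC mice, from 0.276 to 0.593 CPM in controls to 4.28, 4.38 and 6.48 CPM. Under CDAHFD it changed by 2.54 ± 0.51 (0.00095), to 1.46, 1.76 and 3.05 CPM.

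Krt19 had 12 reads in the 4 hepatocyte libraries of FPC controls together (0.0485 to 0.366 CPM) and 5 in those of CDAHFD controls, all of them in mouse Control_10113. Such counts make the fitted changes of Krt19 depend on the prior count of the fit. Mild FPC mice held 0.716 to 1.77 CPM (2.92 ± 0.55, adjusted p = 0.0013) and advanced mice 1.97, 3.25 and 5.28 CPM (4.46 ± 0.54, 2e-05). Each step lay above the last in every mouse. Under CDAHFD mild mice held 0.576 to 1.70 CPM (3.94 ± 1.06, 0.0075). Mice Advanced_9896 and Advanced_10104 held 3.35 and 2.92 CPM, while mouse Advanced_9845 had 3 reads (0.206 CPM), below mouse Control_10113 at 0.244 CPM. The advanced change of 4.98 ± 1.05 (0.0016) became 5.50 ± 0.80 (0.00023) without mouse Advanced_9845. Without mouse Control_10113 the remaining controls were all at 0, and the fit gave 8.39 in advanced and 7.35 in mild mice, values that are no bound. In the alternatives that tested Krt19 the calls held, at 4.53 to 8.39 (advanced) and 3.48 to 7.35 (mild). In the fit of advanced and control libraries alone Krt19 failed the low-count filter, so its advanced call was not tested there. The whole liver library of mouse Advanced_9845 held 1.31 CPM, close to the 1.42 CPM of mouse Advanced_10104. Whole liver Krt19 rose by 3.15 ± 0.30 (2.3e-06) in advanced FPC and 1.75 ± 0.49 (0.0084) in advanced CDAHFD mice, and stood at 0.54 ± 0.50 (0.38) in mild CDAHFD mice.

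Krt23, a type I keratin that healthy liver holds at a low level, was measurable in all 44 libraries. Hepatocyte nuclei of FPC controls held 2.27, 2.32, 2.69 and 5.72 CPM, those of mild mice 4.77, 9.5, 9.71 and 13.2 CPM and those of advanced mice 18, 24.6 and 44.2 CPM. Advanced mice stood above all others, and 1 mild mouse overlapped the controls. The changes were 1.58 ± 0.40 (adjusted p = 0.0087) and 3.26 ± 0.42 (4.4e-05). CDAHFD controls held 0.859 to 2.39 CPM, mild mice 10.1, 11.3, 16.1 and 19.9 CPM (3.21 ± 0.31, 8.9e-06) and advanced mice 23.1, 24.7 and 27.8 CPM (4.03 ± 0.32, 1.5e-06), with no overlap of the 3 groups. Whole liver changes of advanced mice were 2.59 ± 0.38 (8.5e-05) and 2.56 ± 0.27 (5.6e-06).

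Epcam encodes a homophilic adhesion protein of biliary and progenitor cells. Its reads in hepatocyte nuclei numbered 0, 1, 3 and 7 in FPC controls and 2, 3, 3 and 8 in CDAHFD controls (at most 0.391 CPM). Mild FPC mice held 1.23, 1.67, 1.67 and 2.77 CPM (3.63 ± 0.56, adjusted p = 0.00032) and advanced mice 6.71, 8.21 and 12.4 CPM (5.98 ± 0.54, 1.6e-06). Under CDAHFD mild mice held 0.942, 1.27, 3.07 and 4.01 CPM (3.46 ± 0.55, 0.00027) and the 3 advanced mice 6.51, 6.69 and 6.92 CPM (5.01 ± 0.56, 1.5e-05). Control, mild and advanced mice did not overlap under either diet. In whole liver nuclei the advanced changes were 4.31 ± 0.50 (1.2e-05) and 3.11 ± 0.46 (9e-05), with 5.76, 9.12 and 9.31 CPM under FPC and 3.70, 4.27 and 4.86 CPM under CDAHFD.

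Bicc1, whose protein binds mRNA and keeps renal and biliary tubules from forming cysts, had, with Glis3, the lowest standard errors of the members under FPC. Hepatocyte nuclei of FPC controls held 20.8, 21.0, 25.6 and 28.5 CPM of Bicc1, those of mild mice 124, 131, 144 and 176 CPM and those of advanced mice 623, 819 and 952 CPM. The change was 2.67 ± 0.18 (adjusted p = 9.1e-07) in mild and 5.18 ± 0.20 (3.4e-09) in advanced mice. CDAHFD controls held 16 to 26.0 CPM, mild mice 53.2, 54.9, 131 and 138 CPM (2.26 ± 0.34, 0.00022) and advanced mice 157, 216 and 268 CPM (3.44 ± 0.37, 1.5e-05). The 3 groups of each diet did not overlap. Whole liver nuclei of FPC controls held 37.7 to 49.9 CPM, mild mice 140, 142, 143 and 191 CPM and advanced mice 559, 686 and 766 CPM (3.92 ± 0.15, 4.2e-09). The whole liver change in advanced CDAHFD mice was 2.79 ± 0.26 (2.5e-06), to 268, 347 and 381 CPM.

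Glis3, a zinc finger factor of the GLI-similar family, followed Bicc1 closely. It held 20.8, 21.6, 24.9 and 30.7 CPM in hepatocyte nuclei of FPC controls, 160, 167, 201 and 225 CPM in mild mice and 769, 959 and 1228 CPM in advanced mice. The changes were 3.03 ± 0.19 (adjusted p = 7e-07) and 5.45 ± 0.22 (3.9e-09). CDAHFD controls held 17.3 to 22.2 CPM, mild mice 67.6, 68.5, 152 and 164 CPM (2.54 ± 0.31, 5e-05) and advanced mice 197, 242 and 313 CPM (3.69 ± 0.33, 4.7e-06). In whole liver nuclei the advanced changes were 3.89 ± 0.14 (4.2e-09) and 2.78 ± 0.21 (3.2e-07). Per kb of gene Bicc1 stood at 1.29 to 2.19 times Glis3 over the 44 libraries, with a median of 1.66. In FPC hepatocyte nuclei the ratio was 1.67 to 1.84 in controls, 1.29 to 1.41 in mild and 1.39 to 1.53 in advanced mice. Under CDAHFD the hepatocyte means were 1.82 ± 0.36, 1.48 ± 0.10 and 1.52 ± 0.09. Whole liver means were 1.86, 1.56 and 1.90 under FPC and 1.74 in each CDAHFD group. The ratios were not tested.

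Sox4 was the member with the fewest reads in hepatocyte nuclei of FPC controls. The 4 FPC controls had 1, 1, 1 and 2 reads and the 4 CDAHFD controls 0, 2, 3 and 5 reads (at most 0.215 CPM), so the size of its fitted change again depends on the prior count. Mild FPC mice held 0.534, 1.23, 1.62 and 2.24 CPM (4.31 ± 0.71, adjusted p = 0.00053) and advanced mice 1.78, 6.01 and 6.54 CPM (6.12 ± 0.68, 1e-05). Mild and advanced FPC mice overlapped through mouse Advanced_6826. Under CDAHFD mild mice held 1.41, 1.90, 2.83 and 3.46 CPM (4.19 ± 0.48, 2.9e-05) and advanced mice 6.08, 7.09 and 8.71 CPM (5.81 ± 0.48, 2e-06), without overlap. Whole liver Sox4 changed by 3.78 ± 0.46 (1.7e-05) in advanced FPC mice, to 5.17, 5.49 and 5.76 CPM, and by 2.81 ± 0.34 (1.6e-05) in advanced CDAHFD mice, to 2.34, 3.65 and 4.88 CPM.

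Sox9 differed from Sox4 in being present in control hepatocyte nuclei, at 2.47, 3.42, 4.48 and 4.73 CPM under FPC and 2.21, 2.49, 4.80 and 7.77 CPM under CDAHFD. Mild FPC mice held 2.34, 5.33, 5.38 and 7.69 CPM and overlapped the controls (0.54 ± 0.35, adjusted p = 0.27). Advanced FPC mice held 6.11, 11.8 and 13.8 CPM (1.61 ± 0.37, 0.0032). Under CDAHFD mild mice held 9.37 to 10.9 CPM (1.2 ± 0.34, 0.0089) and advanced mice 13.2, 14.3 and 21.9 CPM (1.94 ± 0.36, 0.00069), all above every control. Mild mice stood in whole liver nuclei at 0.02 ± 0.41 (0.97) and 0.13 ± 0.31 (0.75). Advanced whole liver values were 8.11, 9.35 and 9.71 CPM under FPC (1.39 ± 0.42, 0.014) and 3.79, 7.11 and 8.17 CPM under CDAHFD (0.86 ± 0.33, 0.039). The CDAHFD call did not hold without mouse Control_9867 (adjusted p = 0.090) or Control_10113 (0.083) or mouse Advanced_9845 (0.10) or Advanced_9896 (0.17).

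**Figure D3:**
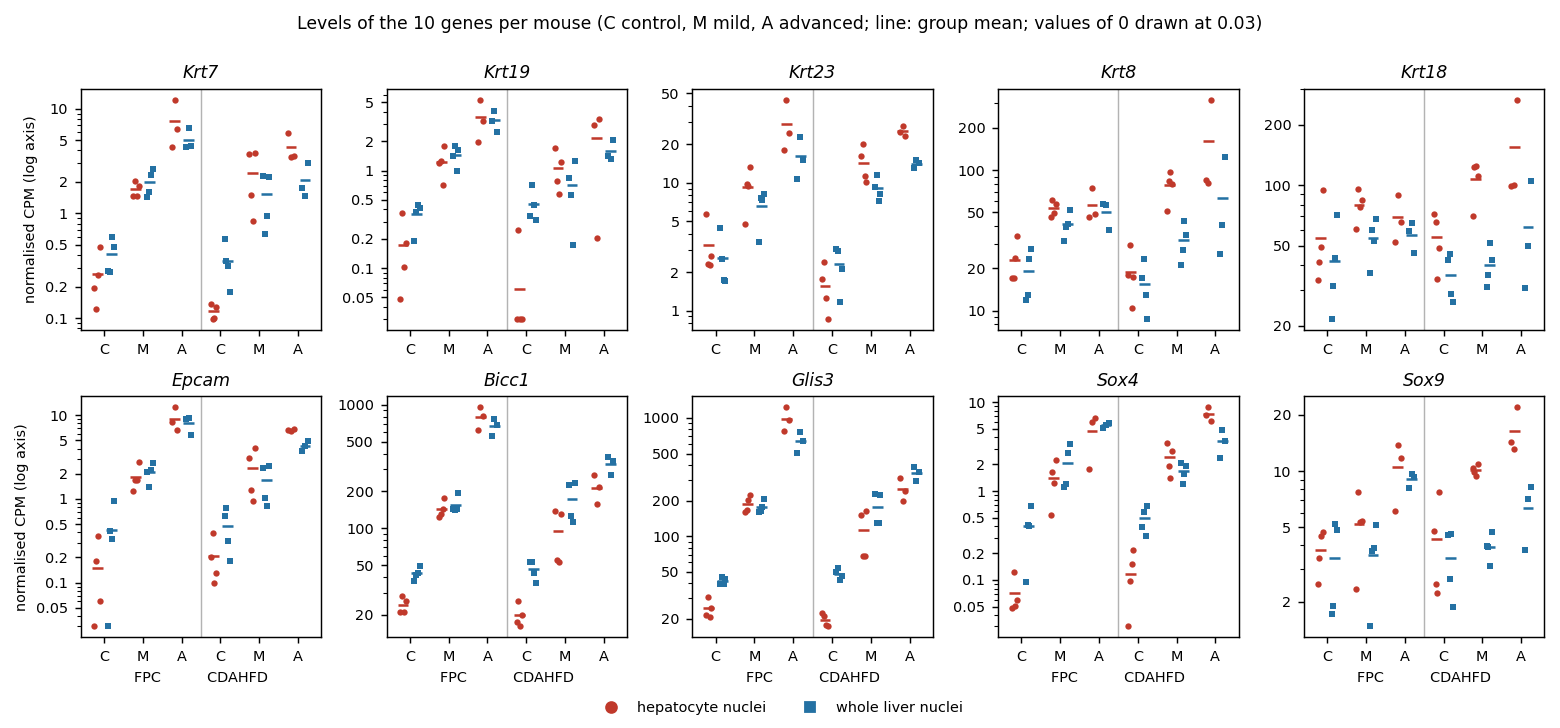
CPM scaled by TMM factors (vertical log axis) of each gene in every library of hepatocyte (red circles) and whole liver nuclei (blue squares), by diet and stage, with the group mean as a line and values of 0 drawn at 0.03. By group mean, Krt8, Krt18, Krt23, Bicc1, Glis3 and Sox9 start above 1 CPM in controls, whereas Krt7, Krt19, Epcam and Sox4 start below 1 CPM.

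From mild to advanced disease, every advanced mouse lay above every mild mouse for 6 members in hepatocyte nuclei under FPC (14.7% of genes tested) and for 6 under CDAHFD (10.5%). The diets were not tested against each other in this step. In FPC hepatocyte nuclei 7 of 10 rose (12.7% of all genes tested were called higher). Bicc1 rose by 2.51 ± 0.18 (adjusted p = 4.8e-06), Glis3 by 2.43 ± 0.19 (8.1e-06), Epcam by 2.35 ± 0.41 (0.0014), Krt7 by 2.19 ± 0.35 (0.00084), Sox4 by 1.81 ± 0.47 (0.016), Krt23 by 1.68 ± 0.40 (0.010) and Krt19 by 1.54 ± 0.42 (0.022). Krt8 (0.12 ± 0.23, 0.79), Krt18 (-0.17 ± 0.31, 0.77) and Sox9 (1.07 ± 0.37, 0.057) did not pass. Without mouse Advanced_6880 the count was 4, with Krt19 (0.12), Krt23 (0.059) and Sox4 (0.064) lost. Krt19 was also lost without mouse Mild_6887 (0.065) and Sox4 without mouse Advanced_6904 (0.073). Sox9 passed without mouse Mild_6886 (0.031) or mouse Advanced_6826 (0.021). In FPC whole liver nuclei 8 rose (13.3%), and Sox9 was among them at 1.37 ± 0.42 (0.036). That Sox9 call was lost (0.061 to 0.10) without mouse Mild_6886, Mild_6887, Advanced_6826, Advanced_6880 or Advanced_6904, and Sox4 without Mild_6886, Advanced_6880 or Advanced_6904 (0.054 to 0.064). The count was 5 without mouse Advanced_6880, where Krt23 was lost too (0.12). The authors' deposited table, on hepatocyte nuclei, calls Sox9 (adjusted p = 0.029) and not Krt19 (0.091).

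Under CDAHFD 1 member passed from mild to advanced in each fraction (1.3% and 0.83% of genes were called higher in hepatocyte and whole liver nuclei). Sox4 rose by 1.62 ± 0.36 (adjusted p = 0.037) in hepatocyte nuclei, a call that was lost (0.061 to 0.13) without any 1 of mice Mild_9852, Mild_9853, Mild_9894, Advanced_9845, Advanced_9896 and Advanced_10104. Glis3 rose by 0.97 ± 0.20 (0.033) in whole liver nuclei, a call that was lost (0.059 to 0.12) without mouse Mild_9852, Mild_9853, Advanced_9845, Advanced_9896 or Advanced_10104. In hepatocyte nuclei Epcam stood at 1.55 ± 0.44 (0.078), Bicc1 at 1.19 ± 0.35 (0.085) and Glis3 at 1.16 ± 0.31 (0.068). The authors' deposited table calls these 3 and Sox4, with adjusted p-values of 0.014 for Epcam, 0.0027 for Bicc1, 0.0016 for Glis3 and 0.014 for Sox4. DESeq2 run here on the same counts likewise called 4 in hepatocyte and 4 in whole liver nuclei, and its share of all genes called is not given here. Without mouse Mild_9894 edgeR called 2 members in each fraction.

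The fraction in which the RNA was found also moved with disease. In control livers, hepatocyte nuclei held less Bicc1 and Glis3 than whole liver nuclei. Per mouse, the hepatocyte to whole liver ratio of Bicc1 was 0.556 ± 0.087 (SD, n = 4) in FPC controls, 0.935 ± 0.063 in mild and 1.18 ± 0.06 in advanced mice (n = 3). The ratio of Glis3 was 0.582 ± 0.067, 1.06 ± 0.07 and 1.54 ± 0.06. The control, mild and advanced ranges did not overlap for either gene. In the fit of the 22 FPC libraries Bicc1 stood at -0.92 ± 0.15 (adjusted p = 6.7e-05) and Glis3 at -0.84 ± 0.15 (0.00023) in controls. In that fit no member passed in mild mice by edgeR (0 at an unadjusted p under 0.05 and 0 by DESeq2). Glis3 at 0.59 ± 0.17 (0.016) was the member that passed in advanced mice. Neither edgeR here nor DESeq2 had a term for the mouse, so the pairing of both libraries went unused. Members called with the mouse as a block, in mild mice too, are given below. The call of Glis3 was lost without mouse Advanced_6880 (0.052) or Advanced_6904 (0.054). In controls 16.2% of genes were called lower and 1.35% higher, and 7.19% were called higher in mild and 4.83% in advanced mice. In the same control, mild and advanced mice the endothelial ratio was 0.104 ± 0.004, 0.194 ± 0.049 and 0.117 ± 0.026. The ratio of the summed mesothelial markers, nearly all of it Gpm6a, was 0.358 ± 0.057, 0.640 ± 0.109 and 1.15 ± 0.17, and that of the lymphocyte markers 0.437 ± 0.151, 1.03 ± 0.22 and 0.712 ± 0.389. Their part in the result was not tested.

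The change of the fraction difference with advanced FPC disease, an interaction term, was 1.13 ± 0.23 log2 units for Bicc1 (adjusted p = 0.0044) and 1.43 ± 0.23 for Glis3 (0.00057), and 2.83% of genes were called higher in that test. Both passed under all alternatives run, at adjusted p of at most 0.039 and 0.0069. The other 8 members did not pass, with Sox4 at 2.21 ± 1.0 (0.41) and Krt7 at 1.22 ± 0.58 (0.45). With the mouse as a block, which uses the pairing of both libraries, 4 members differed between fractions in FPC controls (Krt18 higher at 0.34, adjusted p = 0.030, and Sox4 lower at -2.43, 0.028, beside Bicc1 and Glis3), where 21.4% of genes were called higher and 18.8% lower. In mild mice 4 were then higher, Krt8 (0.38, 0.016), Krt18 (0.56, 0.00080), Krt23 (0.48, 0.0023) and Sox9 (0.54, 0.0496), with 27.6% of genes higher. In advanced mice 2 were higher, Krt23 (0.77, 7.1e-05) and Glis3, with 22.2% of genes higher.

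Under CDAHFD members differed between the fractions in both directions. In controls 4 members were lower there, Bicc1 (-1.19 ± 0.31, adjusted p = 0.0068), Glis3 (-1.25 ± 0.27, 0.0012), Sox4 (-1.90 ± 0.53, 0.0099) and Krt19 (-2.70 ± 1.01, 0.047), where 16.4% of genes were called lower. Without both of mice Control_9862 and Control_9867 the call of Sox4 held, and those of Bicc1 (-1.31, 0.083), Glis3 (-1.26, 0.051) and Krt19 (-1.93, 0.37) did not. The fit has no term for the mouse, so libraries exchanged between these controls would leave it unchanged. Leaving both out leaves fewer controls. The differences of Bicc1 and Glis3 were no smaller then, and that of Krt19 was. Krt19 was also lost without mouse Control_9862, Control_9867 or Control_10110 (0.11 to 0.14) and stood at -6.02 without mouse Control_10113, where no hepatocyte control held a read of it. Sox4 was lost without mouse Control_10113 (0.064). In mild mice Krt18 (1.42 ± 0.37, 0.0036), Sox9 (1.37 ± 0.34, 0.0022), Krt8 (1.30 ± 0.50, 0.039) and Krt23 (0.67 ± 0.26, 0.039) were higher and Bicc1 (-0.88 ± 0.31, 0.022) and Glis3 (-0.64 ± 0.26, 0.046) lower, where 23.1% and 27.6% of genes were called. In advanced mice Sox9 (1.37 ± 0.39, 0.0066), Krt18 (1.32 ± 0.43, 0.017), Sox4 (1.01 ± 0.35, 0.025) and Krt23 (0.84 ± 0.30, 0.028) were higher (20.1% of genes). The number of calls was 2 in mild mice without mouse Mild_9852 and 3 without mouse Mild_9853 or Mild_10102, with the lost calls at 0.052 to 0.13. In advanced mice it was 1 without mouse Advanced_10104, and Krt23 was lost without any 1 of the 3 (0.078 to 0.13). With the mouse as a block 7 members were called in controls, adding Krt7 (-1.45, 0.045) and Epcam (-1.11, 0.018) as lower and Krt18 (0.65, 0.0018) as higher, where 25.9% of genes were called higher and 17.3% lower. With the block and without both mice Control_9862 and Control_9867, a fit added after seeing the data, 4 were called, Krt18 (0.63, 0.012) as higher and Bicc1 (-1.32, 2.5e-05), Glis3 (-1.26, 9.3e-06) and Sox4 (-3.07, 0.016) as lower. The share of all genes called by that fit is not given here. The block gave 9 calls in advanced mice, adding Krt7 (1.09, 0.015), Krt8 (1.37, 9.3e-05) and Epcam (0.67, 0.014) as higher and Bicc1 (-0.65, 0.0014) and Glis3 (-0.45, 0.0031) as lower, where 25.8% of genes were called higher and 25.6% lower.

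Per mouse, the CDAHFD ratio of Sox9 was 2.62 ± 0.29 in mild and 2.77 ± 0.96 in advanced mice, and 1.66 ± 1.67 in controls, where mouse Control_9867 had 4.13. Without mice Control_9862 and Control_9867 the other 2 controls had Sox9 ratios of 1.06 and 0.948. The ratio of Krt8 went from 1.28 ± 0.50 in controls to 2.5 ± 0.41 and 2.63 ± 0.69, and that of Krt18 from 1.55 ± 0.29 to 2.69 ± 0.53 and 2.59 ± 0.61. In those 2 controls the ratios were 1.06 and 1.26 for Krt8, 1.68 and 1.45 for Krt18, 0.329 and 0.483 for Bicc1 and 0.446 and 0.398 for Glis3. Summed hepatocyte markers of the same control, mild and advanced mice had ratios of 1.14 ± 0.14, 1.60 ± 0.06 and 1.65 ± 0.08. The lymphocyte ratio was 0.253 ± 0.104, 0.825 ± 0.103 and 0.794 ± 0.166, and the mesothelial one 0.240 ± 0.007, 0.399 ± 0.113 and 0.491 ± 0.081. The endothelial ratio was 0.107 ± 0.019, 0.123 ± 0.007 and 0.118 ± 0.013. The part of other cell types in these ratios was not tested. Bicc1 stayed below 1 in all 11 mice, at 0.432 ± 0.099, 0.522 ± 0.083 and 0.636 ± 0.061, as did Glis3 at 0.408 ± 0.031, 0.613 ± 0.10 and 0.730 ± 0.078. The interaction passed for Sox4 (2.91 ± 0.64, adjusted p = 0.0056) and Krt23 (1.37 ± 0.43, 0.048), with 3.63% of genes called higher. Krt23 was lost (0.064 to 0.13) without mouse Control_9867 or Control_10110, without mouse Advanced_9845, Advanced_9896 or Advanced_10104, or without both mice Control_9862 and Control_9867. With the mouse as a block 7 members passed, those 2 with Krt7 (2.53, 0.015), Krt8 (1.05, 0.016), Krt18 (0.70, 0.027), Epcam (1.77, 0.0068) and Glis3 (0.81, 0.0021), where 7.36% of genes were called higher. Without both mice Control_9862 and Control_9867 the blocked fit called 9, adding Bicc1 (0.61, 0.036) and Sox9 (1.36, 0.010). That fit was added after seeing the data, and the share of all genes it called is not given here.

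**Figure D4:**
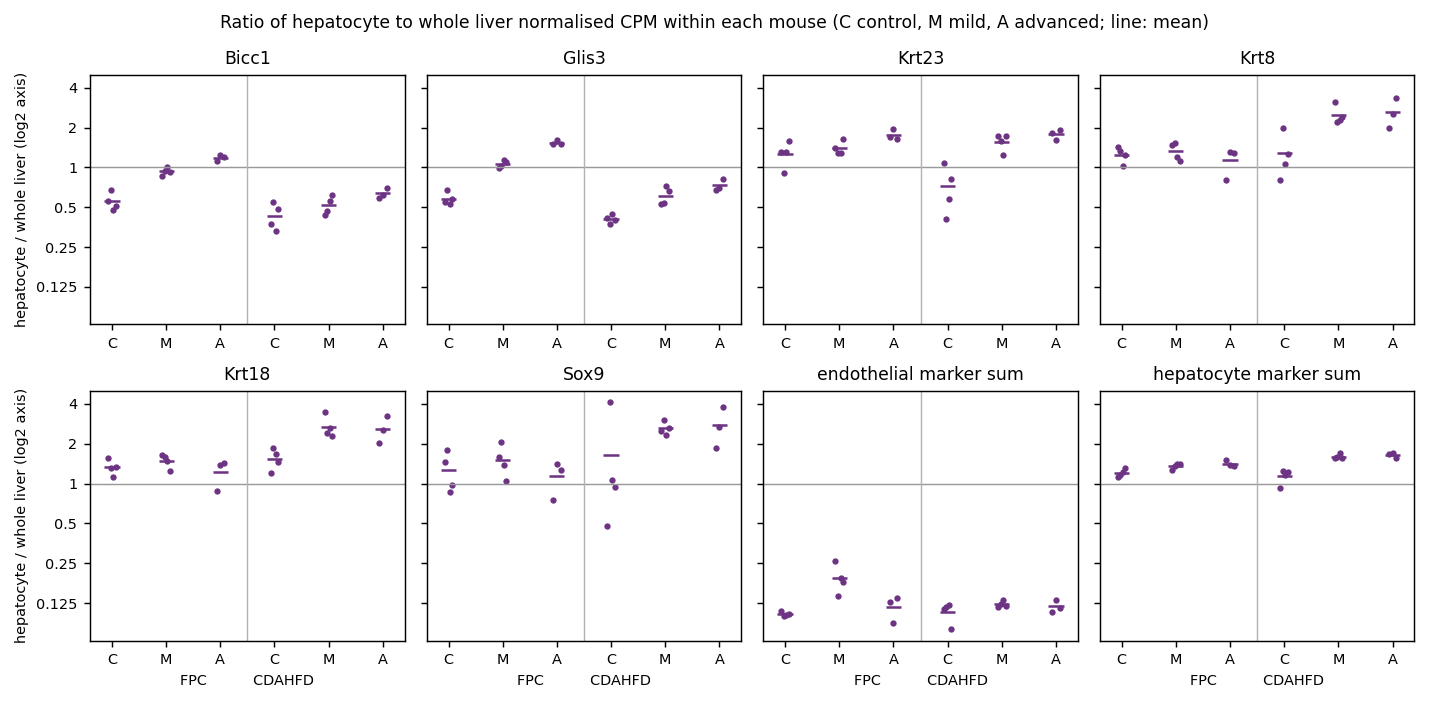
Hepatocyte to whole liver ratio of TMM-scaled CPM within each mouse (vertical log2 axis, line at 1) for 6 of the genes and for the summed endothelial and hepatocyte markers, with the group mean as a line. Bicc1 and Glis3 went from 0.556 and 0.582 in FPC controls to 1.18 and 1.54 in advanced FPC mice. The endothelial sum was at 0.104 and 0.117 in these groups and at 0.194 in mild FPC mice. Sums not drawn moved more, from 0.358 to 1.15 (mesothelial) and from 0.437 to 0.712 (lymphocyte) between FPC controls and advanced mice.

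The diets were set against each other by taking the CDAHFD change (advanced against control) minus the FPC change. Bicc1 and Glis3 were the members that differed. In hepatocyte nuclei Bicc1 stood at -1.68 ± 0.41 (adjusted p = 0.013) and Glis3 at -1.71 ± 0.38 (0.0083), so the FPC change was the larger. The whole liver values were -1.14 ± 0.31 (0.035) and -1.13 ± 0.26 (0.013). Called lower were 7.36% of genes in hepatocyte and 2.97% in whole liver nuclei. The whole liver call of Bicc1 was lost (0.053 to 0.10) without mouse Control_6816, Control_6852, Control_6952, Advanced_6880, Advanced_6904, Control_10110, Control_10113, Advanced_9845 or Advanced_9896. Krt8 differed in the other direction at 1.74 ± 0.58 but did not pass (0.058). It passed without mouse Advanced_6880 (0.046), Control_10113 (0.033), Advanced_9845 (0.033) or Advanced_10104 (0.027), and stood at 0.79 (0.27) without mouse Advanced_9896. Diet and its length differed together and cannot be told apart.

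Levels of the genes were compared per kb of whole gene, introns included, in hepatocyte nuclei. In FPC controls the order of mean CPM per kb was Krt18 (14.3 ± 7.1), Krt8 (3.02 ± 1.06), Sox9 (0.681 ± 0.187), Krt23 (0.215 ± 0.109), Bicc1 (0.102 ± 0.016), Glis3 (0.0581 ± 0.0106), Krt19 (0.0341 ± 0.0272), Sox4 (0.0239 ± 0.0118), Krt7 (0.0171 ± 0.010) and Epcam (0.00996 ± 0.0105). The mean ± SD intervals of neighbours overlapped for Krt23 and Bicc1 and for every pair from Glis3 to Epcam. In advanced FPC mice Bicc1 (3.40 ± 0.71) and Glis3 (2.34 ± 0.55) followed Krt18 (18.1 ± 4.9) and Krt8 (7.41 ± 2.01). Krt23 (1.91 ± 0.90), Sox9 (1.90 ± 0.71), Sox4 (1.62 ± 0.88), Krt19 (0.685 ± 0.327), Epcam (0.601 ± 0.194) and Krt7 (0.493 ± 0.263) came after them, and from Bicc1 on every pair of neighbours overlapped. In advanced CDAHFD mice Sox9 (2.97 ± 0.86) and Sox4 (2.47 ± 0.45) followed Krt18 (40.6 ± 25.1) and Krt8 (21.0 ± 17.6). Bicc1 (0.910 ± 0.236) and Glis3 (0.595 ± 0.138) stood below Krt23 (1.66 ± 0.16) there.

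Genes related to the members by function were taken from lists chosen with earlier results of these data known. Of 20 other biliary genes 17 were tested in hepatocyte nuclei of FPC mice and 16 rose in advanced mice (median 4.90), against 26.5% of all genes, and under CDAHFD 16 of 18 rose (median 4.0), against 30.3%. Cftr, the chloride channel of bile duct cells, rose by 7.39 ± 0.32 (adjusted p = 4.7e-09) and 6.11 ± 0.50 (2.4e-06). The epithelial factor Ehf rose by 5.80 ± 0.25 (4.4e-09) and 4.87 ± 0.45 (5.3e-06), and the secreted phosphoprotein Spp1 by 4.90 ± 0.23 (7.7e-09) and 3.92 ± 0.45 (2.5e-05). In CPM, Ehf stood at 1.69 ± 0.39 in FPC controls and 86.7 ± 25.1 in advanced mice. The sum of the list was 1.18 ± 0.06 times as high in hepatocyte as in whole liver nuclei of FPC controls and 1.68 ± 0.11 times in advanced mice, and 1.08 ± 0.11 and 1.32 ± 0.06 times under CDAHFD.

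Other keratins were scarce, with 1 of 14 tested in FPC hepatocyte nuclei, Krt80 (3.97 ± 0.65, adjusted p = 0.00027), and none tested under CDAHFD. Of 12 linkers of keratin filaments and desmosome genes 6 rose and 1 fell under FPC (median 0.59), and 9 rose and 1 fell under CDAHFD (median 1.39). For these lists too, 26.5% (FPC) and 30.3% (CDAHFD) of all genes were called higher and 20.4% and 29.2% lower. The plakin Evpl (3.90 ± 0.45, 1.3e-05, and 4.19 ± 0.59, 8.6e-05), the plakophilin Pkp3 (2.84 ± 0.39 and 2.82 ± 0.50) and the filament gene Vim (1.81 ± 0.32 and 2.38 ± 0.28) rose under both diets. Of the EPCAM partners 4 of 7 tested rose under FPC (median 0.34), and 5 of 8 rose and 1, Cldn1, fell under CDAHFD (median 1.93), beside 26.5% and 30.3% of all genes called higher. The protease inhibitor Spint1 (5.68 ± 0.44 and 6.02 ± 0.72), the membrane protease St14 (5.43 ± 0.38 and 5.22 ± 0.53) and the cofactor Fhl2 (5.47 ± 0.71 and 3.46 ± 0.55) were among those that rose. St14 and Cldn7 are among the genes that are on the biliary list too.

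Of 13 partners of BICC1 and GLIS factors, genes of the cilium and of cystic kidney disease, 6 rose and 1 fell under FPC (median 0.37), and 5 rose and 3 fell under CDAHFD (median 0.23). The shares of all genes were 26.5% and 30.3% higher and 20.4% and 29.2% lower. The factor Glis2 rose by 4.90 ± 0.41 (adjusted p = 7.8e-07) and 4.55 ± 0.49 (1.3e-05). Anks6, whose protein binds BICC1, rose by 3.66 ± 0.34 (1.8e-06) and 1.74 ± 0.39 (0.0024). Other SOX factors did not rise. Of 6 tested under FPC 3 fell, Sox5 (-0.92 ± 0.20, 0.0022), Sox6 (-0.58 ± 0.14, 0.0044) and Sox7 (-2.83 ± 0.42, 0.00011), and of 5 tested under CDAHFD 2 fell, Sox5 (-1.78 ± 0.16, 2.8e-06) and Sox6 (-1.32 ± 0.10, 1.3e-06). Sox7 stood at -1.28 ± 1.11 (0.34) there. Of all genes 20.4% and 29.2% were called lower. Sox5 went from 1674 ± 359 CPM in FPC controls to 813 ± 227 CPM in advanced mice.

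**Figure D5:**
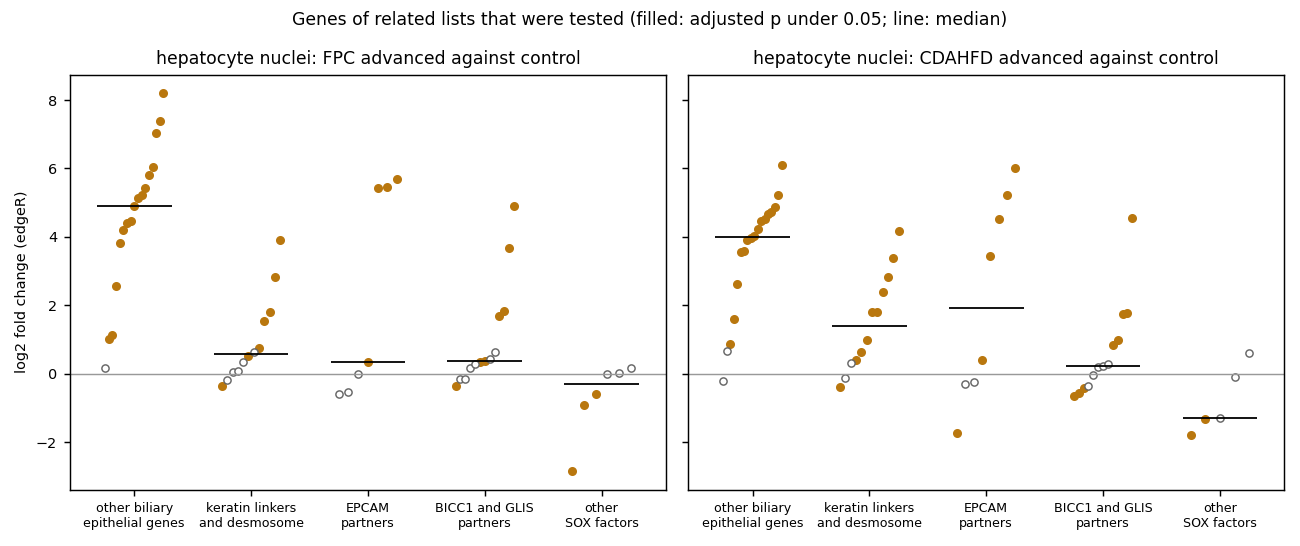
Log2 fold change (vertical axis, edgeR) of every tested gene of 5 related lists in hepatocyte nuclei of advanced against control mice, filled where the adjusted p was under 0.05, with the list median as a line. Under FPC 16 of 17 other biliary genes rose (median 4.90), and 3 of 6 other SOX factors fell.

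Genes whose group means moved most like each member were found among 14627 genes, by the root mean square difference of mean-centred log2 CPM over the 12 group means. The nearest gene to Bicc1 was Glis3 and the nearest to Glis3 was Bicc1 (0.146 log2 units), with Sobp (0.183) and Tspan8 (0.192) next. Krt7 was closest to Dpysl4 (0.146) and Il17re (0.196), Epcam to Ccdc114 (0.152), and Krt19 to Tmem98 (0.215) and Dync2li1 (0.231). Krt23 was closest to 6030419C18Rik (0.251) and Cnksr1 (0.272) and Sox4 to Trim46 (0.252) and Npdc1 (0.271). Krt18 was closest to Hip1r (0.135) and Cdc42bpg (0.174), Krt8 to Hhipl2 (0.266) and Ajuba (0.290), and Sox9 to Gyltl1b (0.186) and Sik1 (0.200). No other member was among the 2 nearest genes of a keratin, Epcam, Sox4 or Sox9. All genes share these libraries, so the measure is a description.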

How the data were processed

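Per the labels' protocols, libraries were made from nuclear RNA with a stranded kit that does not select poly-A tails, and 50 bases were read from each end. The submitters' processing notes name the build mm10, DESeq2 1.24.0 and STAR 2.4.2a. The counting tool and its strand setting are not given in the sources used here. The authors deposited raw read counts for 20105 RefSeq identifiers in 44 libraries. Their deposited table of 13147 genes gives positions, log2 fold changes between hepatocyte groups and, per the file headers, adjusted p-values. There, 94.7% of genes were counted over their whole length.

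Tests used edgeR 4.0.16 (R 4.3.3, limma 3.58.1) on the deposited counts: TMM scaling, the default filter on low counts, a robust quasi-likelihood fit and Benjamini-Hochberg adjustment over all genes tested, with a threshold of 0.05. Standard errors are |log2 fold change| divided by the root of the F statistic. Each fit within a fraction held the 11 libraries of 1 diet, fraction comparisons held the 22 libraries of a diet, and diet differences the 22 libraries of a fraction. All 10 members passed the default filter in each comparison of the main fits. In hepatocyte nuclei Krt7, Krt19, Epcam and Sox4 passed it through the diseased libraries, since control libraries held few reads of them. These genes could scarcely be called lower against control, so their being called higher was in part set by the filter. Both fractions of a mouse are paired by the animal number in its labels. Over 14627 genes their deviations from the group means correlated by over 0.1, and best with the own partner, in 20 of 22 mice. No 2 replicates were alike within counting noise: over 60 pairs, chi-square per degree of freedom ran from 20.0 to 272.

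Alternatives were DESeq2 1.42.0, RLE size factors, 2 other filters, the libraries of the compared groups alone, the carry-over correction, the mouse as a block, leaving out each mouse, and leaving out mice Control_9862 and Control_9867 together, also with the block (added after seeing the data). All 10 members are named, with the 3 genes of smallest adjusted p of each related list in advanced FPC hepatocyte nuclei, genes named in counts of 5 or fewer, and the 2 genes most like each member (log2 of CPM + 0.5). The members, lists and tests were chosen with earlier results of these data known. Of the listed genes Sox2 was not analysed here. Some genes that the naming rule picks are not reported here.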

Additional observations from a re-analysis of the deposited data

Results flagged for a closer look

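In the 80 groups of 4 mice examined for the members, 5 held a mouse far from the other 3, where chance gives about 1 in 20. The number found is close to that rate. The rate holds for normally spread values and not for the few reads of Krt19 and Sox4 in controls. Bicc1 in whole liver nuclei of mild FPC mouse Mild_6888 was at 191 CPM, against 140 to 143 CPM in the others. Krt23 was at 5.72 CPM in hepatocyte nuclei of FPC mouse Control_6816, against 2.27 to 2.69 CPM, and at 3.41 CPM in whole liver nuclei of mild FPC mouse Mild_6825, against 7.37 to 8.09 CPM. Krt19 was at 0.244 CPM in hepatocyte nuclei of CDAHFD mouse Control_10113 and at 0 in the other 3. Sox4 was at 0.122 CPM in those of FPC mouse Control_6852, which is 2 reads, against 0.0485 to 0.0599 CPM, which is 1 read each.

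The change with advanced disease differed between hepatocyte and whole liver nuclei, by the edgeR interaction term, for Bicc1 (1.13, adjusted p = 0.0044) and Glis3 (1.43, 0.00057) under FPC and for Sox4 (2.91, 0.0056) and Krt23 (1.37, 0.048) under CDAHFD. It differed between the diets (CDAHFD minus FPC) for Bicc1 (-1.68, 0.013) and Glis3 (-1.71, 0.0083) in hepatocyte nuclei and for Bicc1 (-1.14, 0.035) and Glis3 (-1.13, 0.013) in whole liver nuclei.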

How the results depend on the processing

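No called change of a member changed sign under any alternative run. Against control, the number of members called in hepatocyte nuclei stayed at 9 to 10 (advanced FPC), 8 to 9 (mild FPC), 10 (advanced CDAHFD) and 9 to 10 (mild CDAHFD) when single mice were left out. From mild to advanced, leaving out single mice gave 4 to 8 members in FPC hepatocyte nuclei, 0 to 2 in CDAHFD hepatocyte nuclei, 5 to 8 in FPC whole liver nuclei and 0 to 2 in CDAHFD whole liver nuclei. Between fractions it gave 0 to 1 in advanced FPC, 2 to 4 in mild CDAHFD and 1 to 3 in advanced CDAHFD mice. The CDAHFD interaction ranged from 1 to 2 and the diet difference in whole liver nuclei from 1 to 2. DESeq2 called 4 members from mild to advanced CDAHFD in hepatocyte nuclei and 4 in whole liver nuclei, and 4 in the CDAHFD interaction. The carry-over correction left 0 from mild to advanced CDAHFD in hepatocyte nuclei, and the interaction gave 1 without a filter on low counts. The replicate block (the mouse) gave 4, 4 and 2 members between fractions in control, mild and advanced FPC mice, 7 and 9 in control and advanced CDAHFD mice, and 7 in the CDAHFD interaction. It lost no call. Without both mice Control_9862 and Control_9867, 1 member was called between fractions of CDAHFD controls and 1 in the interaction. With the replicate block and without both mice, a combination chosen after seeing the data, 4 members were called in those controls and 9 in the interaction. For that combination and for DESeq2 the shares of all genes called are not given here. The cause of these shifts was not tested. Groups hold 3 or 4 mice, and for Krt7, Krt19, Epcam and Sox4 in controls counting error at 0 to 8 reads a hepatocyte library limits any fold. Without mouse Control_6952 the FPC changes of Epcam were 6.92 (advanced) and 4.57 (mild), and without mouse Control_6852 those of Krt19 were 5.08 and 3.54.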

Other observations

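Mild CDAHFD mice split the same way for several members. In hepatocyte nuclei mice Mild_9894 and Mild_10102 held 131 and 138 CPM of Bicc1, 164 and 152 CPM of Glis3, 4.01 and 3.07 CPM of Epcam and 3.75 and 3.66 CPM of Krt7. Mice Mild_9852 and Mild_9853 held 54.9 and 53.2 CPM of Bicc1, 67.6 and 68.5 CPM of Glis3, 1.27 and 0.942 CPM of Epcam and 1.5 and 0.838 CPM of Krt7. Their whole liver libraries split the same way for Bicc1, at 233 and 223 CPM against 126 and 113 CPM. Krt8 and Krt18 did not follow this split: mouse Mild_10102 had the least of both among the mild CDAHFD mice, at 50.8 and 70.6 CPM in hepatocyte and 21.3 and 31.0 CPM in whole liver nuclei. Mouse Advanced_9896 had the most Krt8 and Krt18 of all 22 mice in hepatocyte nuclei (315 and 265 CPM), and stood between mice Advanced_9845 and Advanced_10104 in Bicc1 (216 CPM) and Glis3 (242 CPM).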
